A study of Mus musculus with 6 samples.

Results

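The genes described here are the protein-coding neighbours of *Trdn* on mouse chromosome 10. They are the protein-coding genes of the deposited table that lie wholly between 10 Mb before the start and 10 Mb after the end of *Trdn* (positions 23080554 to 43476709, GRCm38), with *Trdn* itself left out. The rule used position only and no measured value. It gave 83 genes, of 14970 protein-coding genes and 21776 genes in all. Of these, 32 lie on the side of lower coordinates of the 5′ end of *Trdn-as* and 51 on the side of higher coordinates. Distances are from that 5′ end to the 5′ end of each gene, and run from 0.37 Mb (*Nkain2*) to 9.97 Mb (*Pdss2*).

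*Trdn* encodes triadin, a protein that ties the calcium release channel of heart and skeletal muscle to calsequestrin, and the long non-coding RNA *Trdn-as* is read from the opposite strand within it. Antisense and other long non-coding RNAs can act on genes of the same chromosome, through the RNA itself, through the act of transcription or through DNA elements within their loci, and the genes around such a locus are where an effect of this kind is looked for. Neighbouring genes may also share enhancers and chromatin domains. The window around *Trdn* holds genes of many roles, among them laminin chains of the muscle and vessel basement membrane, the Notch-responsive repressor *Hey2*, the deacetylase *Hdac2* and the forkhead factor *Foxo3*.

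The study compared hearts of 3 *Trdn-as* KO mice with hearts of 3 WT mice by strand-specific total RNA sequencing, 1 library per heart. In the KO mice a polyadenylation cassette had been placed by Cas9 in the first exon of *Trdn-as* in mouse embryonic stem cells. Chimeras made from edited clones founded the line, with backcrossing to C57BL/6. The homozygous KO is constitutive, so all cells of these hearts, which the series title calls adult, carry the allele, although the series' own design text speaks of cardiomyocytes. The strain of the stem cells, the number of backcross generations, the exact age and the sex of the hearts, and whether WT hearts came from littermates are not given in the sources used here. For genes of this window, an effect of the KO allele and one of any stem cell DNA still linked to it cannot be told apart. The WT hearts carried no inserted cassette.

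The first exon of *Trdn-as* is shown because it received the cassette and because distances are counted from its first base. It covers 229 bases on the minus strand (chr10:33256190-33256418, GRCm38, GENCODE M21 transcript sequence). It is written 5′ to 3′, with the letters GGAATG, the MCAT motif bound by TEAD factors, in capitals.

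*Trdn-as* first exon: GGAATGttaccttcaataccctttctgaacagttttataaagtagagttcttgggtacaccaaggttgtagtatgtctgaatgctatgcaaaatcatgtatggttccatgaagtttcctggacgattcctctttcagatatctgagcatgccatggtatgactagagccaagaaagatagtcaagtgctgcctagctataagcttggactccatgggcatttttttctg

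The promoters of the nearest tested gene on each side follow, since a change that falls off with distance would be looked for there first. Each holds 250 bases before and 50 after the start that RefSeq gives (GRCm38.p6). Capitals mark the motifs searched on both strands, which were GGAATG, the GATA motif AGATAA and the T-box motif AGGTGT. The *Rnf217* promoter lies at chr10:31609676-31609975 on the minus strand, where the start in RefSeq is 541 bases from the 5′ end in the table. The *Zufsp* promoter, listed by RefSeq under the newer name *Zup1*, lies at chr10:33951210-33951509 on the minus strand.

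*Rnf217*: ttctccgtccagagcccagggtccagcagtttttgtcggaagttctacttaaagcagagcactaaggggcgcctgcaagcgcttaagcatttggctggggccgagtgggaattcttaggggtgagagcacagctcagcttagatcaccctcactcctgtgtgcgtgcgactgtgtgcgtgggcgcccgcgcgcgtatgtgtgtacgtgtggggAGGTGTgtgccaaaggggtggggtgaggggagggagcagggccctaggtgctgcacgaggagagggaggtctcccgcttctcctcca

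*Zufsp*: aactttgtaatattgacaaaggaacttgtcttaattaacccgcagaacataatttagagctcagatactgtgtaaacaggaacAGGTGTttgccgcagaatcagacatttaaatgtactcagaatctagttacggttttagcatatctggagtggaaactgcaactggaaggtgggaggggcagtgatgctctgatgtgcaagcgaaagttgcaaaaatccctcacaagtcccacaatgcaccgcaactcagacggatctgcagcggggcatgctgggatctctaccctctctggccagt

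Both held an AGGTGT, and neither held GGAATG or AGATAA. A RefSeq promoter was matched by symbol for 68 of the 83 neighbours and lay within 1000 bases of the 5′ end in the table for 64. GGAATG was found in 10 of these 64 promoters (15.6%), against 14.7% of all 32851 promoters of the same length. AGATAA was found in 5 (7.8%, against 11.2% of all) and AGGTGT in 10 (15.6%, against 13.7% of all). A match is a run of letters and not evidence of binding.

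The values are normalised read counts, that is, reads per gene divided by a library size factor and rounded. Libraries summed to 3.13 to 3.25 M, which corresponds to an estimated 2.59 to 3.62 M counted reads, and 3 reads correspond to a value of 2.61 to 3.77. The KO was checked first. *Trdn-as* was at 1, 0 and 1 in the KO hearts, given here and below in the order of replicates 1 to 3, and at 690, 773 and 688 in the WT hearts, at least 240-fold lower in KO against the floor of 3 reads per library. *Trdn* was at 2489, 2381 and 2551 in KO and at 1541, 1541 and 1516 in WT, a log2 fold change of 0.69 ± 0.052 (SE, n = 3 per group, limma adjusted p = 2.35e-07, and 0.145 without the mean-variance trend). For both, the groups were far apart. Of the markers of heart muscle cells, *Myh6*, *Actc1*, *Tnnt2*, *Tnni3*, *Pln* and *Ryr2*, all 6 were fitted lower in KO. Against 5.74% of all genes tested (2.8% called lower), 4 of these 6 markers had an unadjusted limma p under 0.05. Their summed value ranged from 19292 to 20642 in KO and from 20152 to 24665 in WT, a ratio of 0.897. Summed markers ranged from 3262 to 3670 in KO and 3446 to 3674 in WT for fibroblasts and from 3526 to 4074 and 3528 to 3984 for endothelial cells, with 0 of 5 and 0 of 4 at an unadjusted p under 0.05. The skeletal muscle markers with an entry summed to 1 to 8 in every library. In whole hearts, fewer cells of a type and less RNA per cell cannot be told apart, and the part of the heart muscle markers in the values below was not tested. The 3 hearts of a group are taken as separate animals, and p-values measure the spread between these samples only.

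The comparison asked whether genes around *Trdn-as* differ between KO and WT hearts, and how any difference is placed by distance. None of the neighbours passed an adjusted p of 0.05. Of the 83 genes, 67 reached a mean of 10 and could be tested. Of these 67, 0 had a limma adjusted p under 0.05, against 0.0291% of all 13753 genes tested. The smallest adjusted p was 0.845, and limma-voom also called 0. At an unadjusted limma p under 0.05 there were 6 neighbours, 8.96% of the 67, against 5.74% of all genes tested and 3.02% (16 of 529) in the rest of the protein-coding genes of chromosome 10. The difference between these shares was not tested. One of these, *Marcks*, was higher in KO (against 2.94% of all genes called higher), and 5 were lower, *Tspyl4*, *Mfsd4b4*, *Mfsd4b5*, *Ddo* and *Armc2* (against 2.8% called lower). Limma-voom and scaling of each library to its total gave 3 neighbours each, 1 higher and 2 lower. The count was 0 without KO replicate 3 and 3 without KO replicate 2, so the 6 genes are described below as values and not as changed genes. The share of all genes called under these other settings is not given here. The shifts in the count therefore cannot be read as particular to the neighbours.

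**Figure D1:**
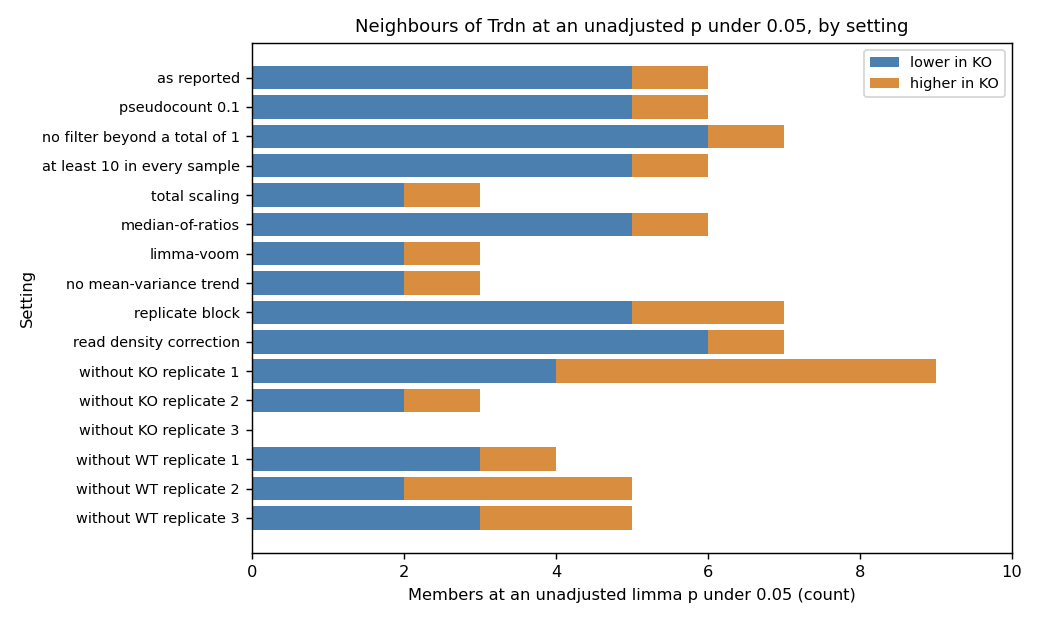
Number of tested neighbours at an unadjusted limma p under 0.05 (x axis), split into lower (blue) and higher (orange) in KO, under each setting (y axis). The count is 6 as reported and runs from 0 without KO replicate 3 to 9 without KO replicate 1. The share of all genes called under each setting is not shown.

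As a group the neighbours had nearly the same level in both genotypes. Summed over all 83 genes the value was 16255, 15942 and 16320 in KO and 16303, 16121 and 16097 in WT, which is 16172 ± 202 in KO and 16174 ± 113 in WT (SD, n = 3). The ranges overlap, and the neighbours made up 0.515% ± 0.00557 of the library total in KO and 0.507% ± 0.00656 in WT (SD, n = 3). The median log2 fold change of the 67 tested neighbours was 0.008, beside 0.002 over all genes tested and 0.013 over the 529 tested protein-coding genes of the rest of chromosome 10. Of the 67, 36 were fitted higher and 31 lower. The median size of the change, whatever its direction, was 0.061 on the log2 scale among neighbours, 0.077 in the rest of chromosome 10 and 0.089 among all genes tested. The neighbours' median level was 179, against 105 for all genes tested, and across the 67 the size of the change was smaller at higher levels (Spearman's rho = -0.36, n = 67 genes that share libraries).

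**Figure D2:**
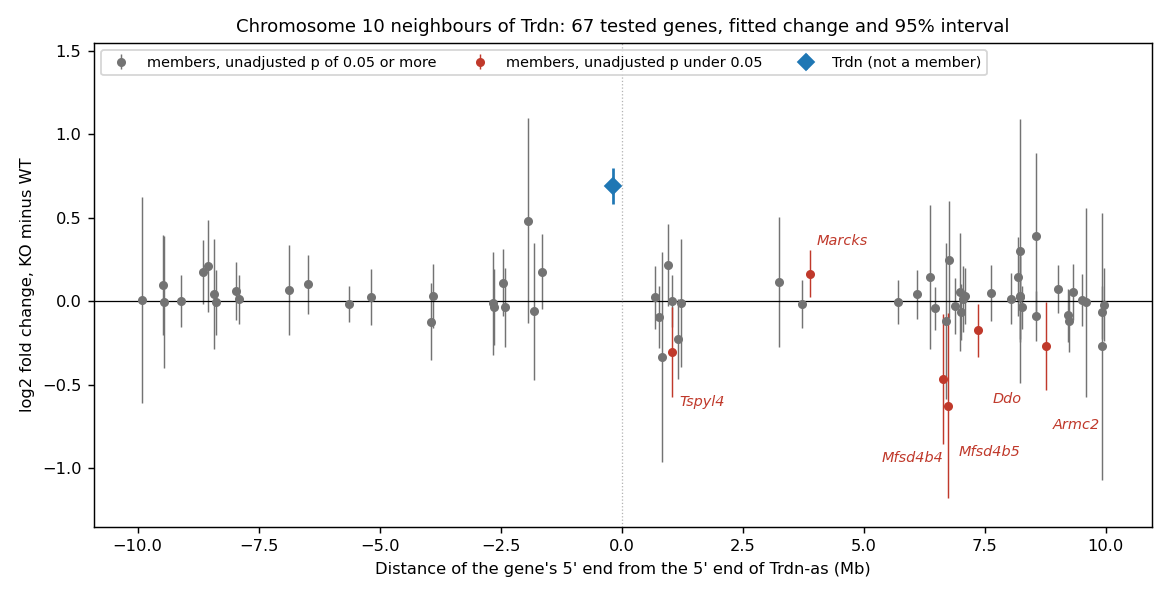
Fitted log2 fold change (KO minus WT, y axis) with its 95% interval for the 67 tested neighbours, against the distance of each gene's 5′ end from the 5′ end of *Trdn-as* in Mb (x axis). *Trdn*, at a log2 fold change of 0.69, stands above the neighbours, which range from -0.62 to 0.48, and the 6 named genes in red have an unadjusted p under 0.05.

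The precision behind these values was a median SE of 0.104 on the log2 scale, about 7.49% of a level. The 95% interval of the fold lay within 1.5-fold in either direction for 58 of the 67 neighbours (86.6%), against 74.4% of all genes tested, 80.5% of all protein-coding genes tested and 80.9% of those of the rest of chromosome 10. The interval stayed below the change of *Trdn* itself, 0.69 on the log2 scale, for 64 of 67, and within that size in both directions for 60. Only *Mfsd4b5* was fitted beyond 1.5-fold, at a low level. A change as large as that of *Trdn* was thus outside the interval of most neighbours, while changes smaller than these intervals were not detectable at this depth and number of hearts.

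By distance, the medians of both sides together ran from -0.034 to 0.013. Within 2 Mb of the 5′ end of *Trdn-as* lie 12 neighbours, of which 11 were tested. Their median log2 fold change was -0.008 (5 fitted higher, 6 lower), and it was 0.014 with total scaling and 0.016 with limma-voom. The within-group SD of this median was 0.085, against 0.016 for the median of all 67. The median was -0.034 for the 4 tested under 1 Mb, -0.008 for 7 at 1 to 2 Mb, -0.012 for 9 at 2 to 5 Mb and 0.013 for 47 at 5 to 10 Mb. The median size of the change was 0.157, 0.178, 0.036 and 0.056 in the same 4 classes, and rho between size and distance was -0.13 (n = 67 genes). At 1 to 2 Mb the pooled median joins 0.178 for 3 genes on the lower-coordinate side and -0.117 for 4 on the higher-coordinate side. In the same order, it joins -0.023 for 6 and 0.117 for 3 at 2 to 5 Mb. At 5 to 10 Mb it joins 0.035 for 14 and -0.005 for 33. The larger sizes near the locus rest on few genes, among them *Hddc2* and *Fam26e* with values of 9 to 23. Tested neighbours on the lower-coordinate side numbered 23, with a median of 0.026 and 0 at an unadjusted p under 0.05. On the higher-coordinate side there were 44, with a median of -0.005 and all 6 of the genes at an unadjusted p under 0.05, 13.6% of the 44 against 5.74% of all genes tested and 3.02% in the rest of chromosome 10. The difference between the sides was not tested.

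The nearest neighbour of all, *Nkain2*, a partner of the sodium pump, has its 5′ end 0.37 Mb away and is barely expressed in these hearts. Its values were 3, 3 and 2 in KO and 1, 3 and 2 in WT, at or near the floor in both groups. *Clvs2*, the next gene on the other side of *Trdn*, has no entry in the table and was not analysed here. This leaves a stretch of 2.34 Mb around the locus, from *Rnf217* on one side to *Zufsp* on the other, in which *Trdn* is the only protein-coding gene that was tested.

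On the lower-coordinate side the nearest tested gene was *Rnf217*, an E3 ubiquitin ligase, at 1.65 Mb. It was at 245, 252 and 262 in KO and at 221, 185 and 273 in WT, a fold of 1.13 (95% interval 0.968 to 1.32). The KO values lie inside the WT range, and without WT replicate 3 alone it had an unadjusted limma p under 0.05. *Tpd52l1*, at 1.81 Mb, was at 34, 33 and 32 in KO and 29, 39 and 36 in WT, again with KO inside the range of WT. *Hddc2*, an HD domain hydrolase at 1.94 Mb, was at 21, 16 and 20 in KO and at 9, 17 and 15 in WT, a fold of 1.4 (95% interval 0.913 to 2.14). This was the highest fitted fold of the 67, with overlapping groups and a wide interval at a low level.

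*Hey2* and *Ncoa7* come next on that side. *Hey2*, a repressor downstream of Notch that keeps atrial genes off in the ventricle, was at 104, 114 and 117 in KO and 106, 113 and 125 in WT. The groups overlap throughout, with a fold of 0.975 (95% interval 0.829 to 1.15). *Ncoa7*, a nuclear receptor coactivator, was at 174, 206 and 206 in KO and 175, 194 and 172 in WT, a fold of 1.08 (95% interval 0.941 to 1.24), with the lowest KO heart among the WT hearts.

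On the higher-coordinate side the nearest neighbour was *Zufsp*, a deubiquitinase linked to DNA repair, at 0.69 Mb. It was at 218, 201 and 236 in KO and at 204, 204 and 236 in WT, a fold of 1.02 (95% interval 0.891 to 1.16). The highest value was the same in both groups. *Rwdd1*, an RWD domain protein at 0.76 Mb, was at 175, 166 and 177 in KO and 197, 179 and 177 in WT, a fold of 0.938 (95% interval 0.823 to 1.07). Its highest KO value equals its lowest WT value. Of its transcript sequence, 22.7% occurs in other genes in runs of 75 bases, so its level is uncertain. *Fam26e*, of the calcium homeostasis modulator channel family, was at 10, 16 and 17 in KO and 23, 13 and 19 in WT, overlapping and too low for a narrow interval (fold 0.794, 95% interval 0.513 to 1.23).

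*Dse* and *Tspyl1* follow at 0.95 and 1.03 Mb. *Dse*, the epimerase that makes dermatan sulfate, was at 99, 105 and 119 in KO and at 91, 91 and 94 in WT. Every KO heart was above the highest WT heart, and the fold was 1.17 (95% interval 0.983 to 1.38, limma adjusted p = 0.86). It had an unadjusted limma p under 0.05 in 2 of 15 alternatives, without the mean-variance trend and without KO replicate 1. *Tspyl1*, of the nucleosome assembly protein family, was at 362, 347 and 331 in KO and at 375, 328 and 337 in WT, a fold of 1 (95% interval 0.898 to 1.12). Its neighbour *Tspyl4* is described below.

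**Figure D3:**
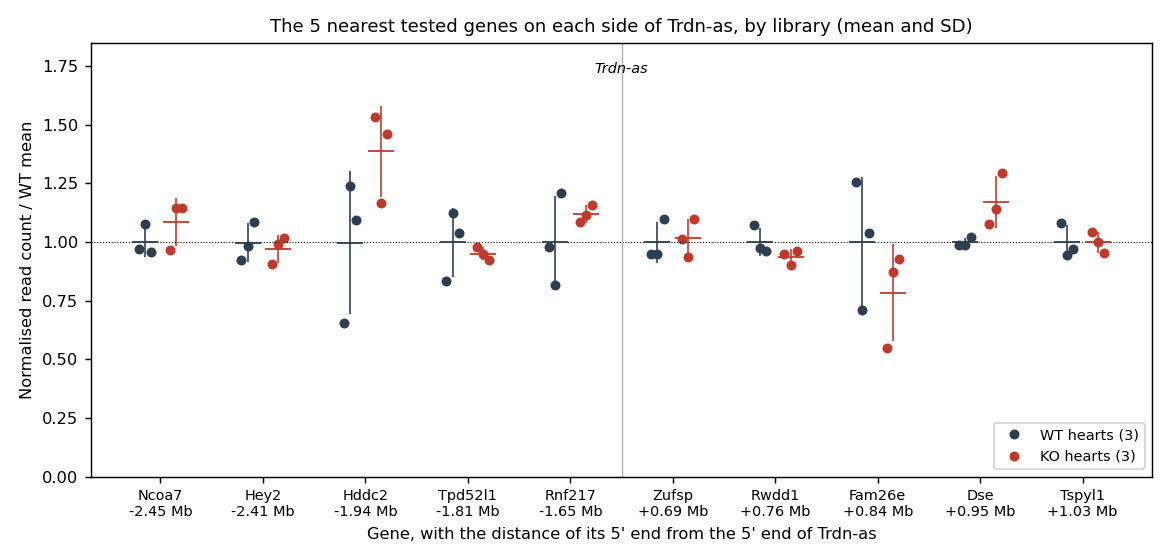
Normalised read count divided by the WT mean (y axis) in each library for the 5 nearest tested genes on each side of *Trdn-as* (x axis), with the mean and SD of 3 WT (dark) and 3 KO (red) hearts. The groups overlap for 9 of the 10 genes, *Dse* being the exception, and *Hddc2* and *Fam26e* spread most. For *Rwdd1* they meet only at a tied value.

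The genes at an unadjusted limma p under 0.05 all had an adjusted p of 0.845 or above. *Tspyl4*, a relative of *Tspyl1* that lies beside it at 1.04 Mb, was at 104, 85 and 89 in KO and at 96, 127 and 122 in WT. KO replicate 1 lies above WT replicate 1, so the groups overlap, and the log2 fold change was -0.30 ± 0.13 (SE, limma adjusted p = 0.851). It kept an unadjusted p under 0.05 in 2 of 6 leave-one-out fits. The gene between its pair and *Frk*, *Nt5dc1*, a putative nucleotidase at 1.16 Mb, was at 104, 113 and 108 in KO and 121, 116 and 145 in WT. All its KO values were below the WT values, with a log2 fold change of -0.23 (limma adjusted p = 0.851). *Frk*, a Src-related kinase, showed a fold of 0.994 (95% interval 0.763 to 1.3).

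*Marcks*, a substrate of protein kinase C that links the membrane to actin, lies at 3.88 Mb. It was at 445, 459 and 484 in KO and at 429, 417 and 390 in WT. Each KO heart exceeded each WT heart, with a log2 fold change of 0.17 ± 0.068 (SE, limma adjusted p = 0.851), a fold of 1.12 (95% interval 1.02 to 1.24). Of the 6 leave-one-out fits it kept an unadjusted p under 0.05 in 4, failing without KO replicate 3 and without WT replicate 3. Its neighbour *Hdac2*, at 3.72 Mb, was at 456, 428 and 439 in KO and 420, 464 and 454 in WT, within the same range.

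*Ddo*, D-aspartate oxidase, at 7.37 Mb, was at 381, 349 and 321 in KO and at 404, 373 and 407 in WT. The groups overlap at KO replicate 1 and WT replicate 2, and the log2 fold change was -0.17 ± 0.076 (SE, limma adjusted p = 0.851). *Armc2*, known for the assembly of the sperm flagellum, at 8.76 Mb, was at 236, 151 and 169 in KO and at 238, 223 and 198 in WT. KO replicate 1 stood with the WT hearts and KO replicates 2 and 3 below them, with a log2 fold change of -0.27 ± 0.125 (SE, limma adjusted p = 0.851). Without KO replicate 1 the log2 fold change of *Armc2* was -0.45 and its adjusted limma p 0.0784, the lowest that any neighbour reached in any setting. Each of *Ddo* and *Armc2* kept an unadjusted p under 0.05 in 2 of 6 leave-one-out fits.

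**Figure D4:**
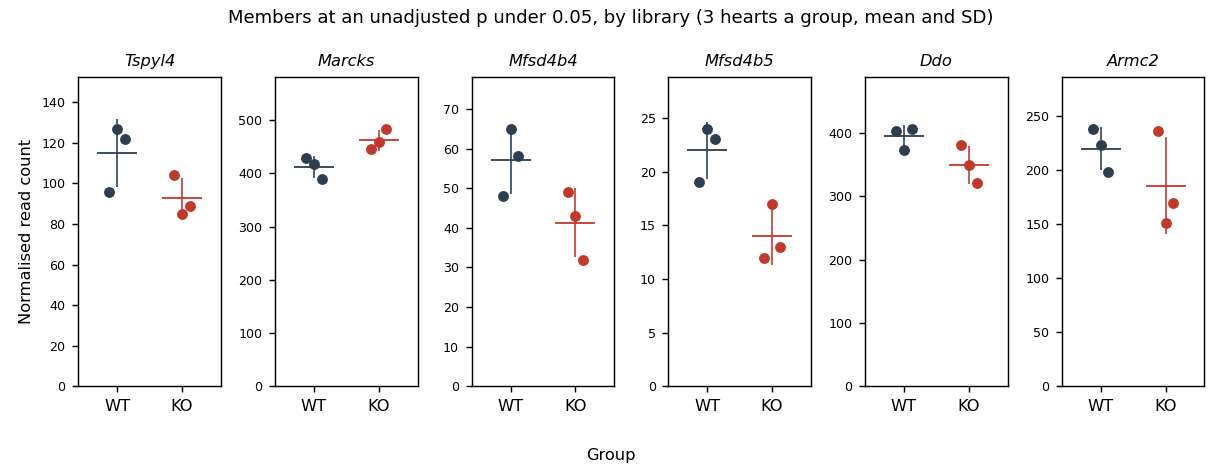
Normalised read count (y axis, from 0) by library for the 6 neighbours at an unadjusted p under 0.05, with the mean and SD of 3 WT and 3 KO hearts (x axis). *Marcks* and *Mfsd4b5* are the pair whose groups do not overlap.

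The remaining members of the 6, *Mfsd4b4* and *Mfsd4b5*, belong to a cluster of paralogs 6.64 to 6.77 Mb from *Trdn-as*, related to a sodium-dependent glucose transporter. *Mfsd4b4* was at 49, 43 and 32 in KO and at 48, 65 and 58 in WT, a log2 fold change of -0.47 ± 0.187 (SE, limma adjusted p = 0.845). *Mfsd4b5* was at 12, 17 and 13 in KO and at 19, 24 and 23 in WT, a log2 fold change of -0.62 ± 0.265 (SE, limma adjusted p = 0.851). *Mfsd4b5* values did not overlap between groups, and those of *Mfsd4b4* did at 1 heart of each. They kept an unadjusted p under 0.05 in 2 and 3 of 6 leave-one-out fits.

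Of the other 2 paralogs with an entry, *Mfsd4b1* was fitted higher in KO and *Mfsd4b3* lower, and differences among the paralogs were not tested. *Mfsd4b1* was at 57, 50 and 48 in KO and at 39, 47 and 44 in WT, with no overlap and a fold of 1.19 (95% interval 0.932 to 1.51). *Mfsd4b3* was at 31, 24 and 27 in KO and 24, 29 and 37 in WT, a fold of 0.923 (95% interval 0.668 to 1.28). Summed over the 4 paralogs the values were 149, 134 and 120 in KO and 130, 165 and 162 in WT, which is 134 ± 14.5 and 152 ± 19.4 (SD, n = 3). The sums overlap. The two-sided exact permutation p was 0.3, which decides nothing, since 0.1 is the smallest that 3 against 3 can give. The sum was added after the values had been seen.

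How reads are split among these paralogs is uncertain. The coding sequences of *Mfsd4b5* and *Mfsd4b4* are 87.8% identical, and the longest stretch they share without a difference is 188 bases, bases 853 to 1040 of the *Mfsd4b5* coding sequence. It is printed from the GENCODE M21 transcript, since a read that lies wholly in it fits both genes and was not counted by the authors for either.

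*Mfsd4b5* and *Mfsd4b4* shared coding stretch: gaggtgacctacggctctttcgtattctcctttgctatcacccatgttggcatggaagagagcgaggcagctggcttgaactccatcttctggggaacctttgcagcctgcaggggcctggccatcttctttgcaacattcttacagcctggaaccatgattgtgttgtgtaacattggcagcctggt

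In runs of 75 bases, 6.23% of the *Mfsd4b5* transcript sequence, 6.01% of *Mfsd4b4*, 6.37% of *Mfsd4b1* and 20.2% of *Mfsd4b3* occur in another gene. *Amd1* (72.5%), *Rwdd1* (22.7%), *Rps12* (19.5%) and *9330159F19Rik* (5.57%) were the other neighbours above 5%. Without these 8 genes, 4 of the remaining 60 tested neighbours had an unadjusted limma p under 0.05, against 5.74% of all genes tested. The promoter of *Mfsd4b5* (chr10:39986597-39986896, minus strand, GRCm38.p6) is 1 of the 10 that hold GGAATG, here on the reverse strand and so printed as its complement. It is shown because *Mfsd4b5* had the largest fitted change.

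*Mfsd4b5*: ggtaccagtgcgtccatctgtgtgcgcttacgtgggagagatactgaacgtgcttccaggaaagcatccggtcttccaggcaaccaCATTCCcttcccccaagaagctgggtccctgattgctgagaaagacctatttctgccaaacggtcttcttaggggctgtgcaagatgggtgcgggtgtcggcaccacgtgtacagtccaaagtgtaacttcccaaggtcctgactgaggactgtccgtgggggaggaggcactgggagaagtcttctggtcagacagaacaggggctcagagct

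Counted by overlap and not by the fit, 7 of the 67 tested neighbours (10.4%) had groups that did not overlap, against 9.07% of all genes tested. Higher in KO were *Dse*, *Marcks*, *Mfsd4b1* and *Zbtb24*, against 4.64% of all genes. Lower in KO were *Nt5dc1*, *Mfsd4b5* and *Afg1l*, against 4.44%. *Zbtb24*, a zinc finger factor mutated in an immunodeficiency with unstable centromeres, was at 110, 106 and 112 in KO and 101, 103 and 92 in WT. *Afg1l*, a mitochondrial ATPase, was at 260, 279 and 274 in KO and 298, 281 and 283 in WT. In both, the nearest values of the groups were 2 to 3 apart, and the 95% interval of the fold spanned 1. These shares are near those of all genes.

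By role, the neighbours of the matrix and basement membrane had 5 of 6 genes tested, with a median log2 fold change of 0.12. Of the 5, 0 had an unadjusted limma p under 0.05, against 5.74% of all genes tested. *Lama2*, the laminin chain of the muscle basement membrane whose loss causes a muscular dystrophy, was the most abundant neighbour. It was at 1786, 1855 and 1903 in KO and at 1871, 1878 and 1856 in WT, a fold of 0.989 (95% interval 0.917 to 1.07). *Lama4*, a chain of vessel and heart muscle basement membranes, was at 963, 1053 and 1019 in KO and 1080, 1035 and 934 in WT, a fold of 0.997 (95% interval 0.909 to 1.09). Both had overlapping groups and narrow intervals. Of the 10 laminin chains with an entry (*Lama1* has none) 9 were tested. Only *Lama5*, on another chromosome, had an unadjusted limma p under 0.05 (log2 fold change 0.22, adjusted p = 0.772). That is 11.1% of the 9, against 5.74% of all genes tested.

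*Ctgf*, the matricellular protein CCN2 induced by TGF-beta and by YAP with TEAD, was at 250, 273 and 298 in KO and at 214, 268 and 245 in WT. Its fold was 1.13 (95% interval 0.989 to 1.29, limma adjusted p = 0.851), with overlapping groups. It had an unadjusted p under 0.05 in 3 of 15 alternatives, which were the replicate block and leaving out KO replicate 1 or WT replicate 2. Of the list of YAP and TEAD targets 10 genes were tested, 6 fitted higher and 4 lower. Of these 10, 0 had an unadjusted limma p under 0.05, against 5.74% of all genes tested.

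Of the signalling and cytoskeleton genes 14 of 16 were tested, with a median log2 fold change of 0.03. *Marcks* was the only one at an unadjusted limma p under 0.05 (7.14% of the 14, against 5.74% of all genes tested). *Fyn*, a Src family kinase, was at 358, 336 and 346 in KO and 337, 326 and 346 in WT, a fold of 1.03 (95% interval 0.931 to 1.14). Its highest WT value equals a KO value. All 14 had a 95% interval within 1.5-fold, as did the 6 tested genes of membrane traffic. The share was 74.4% over all genes tested and 80.5% over all protein-coding genes tested.

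Of the transcription, chromatin and RNA genes 17 of 18 were tested, with a median of 0.00. *Tspyl4* was the only one at an unadjusted limma p under 0.05 (5.88% of the 17, against 5.74% of all genes tested). *Foxo3*, a forkhead factor that drives atrophy and stress genes, was at 855, 826 and 735 in KO and 804, 784 and 702 in WT, a fold of 1.05 (95% interval 0.954 to 1.17). *Rev3l*, the catalytic subunit of DNA polymerase zeta, was at 676, 708 and 694 in KO and 742, 671 and 727 in WT, a fold of 0.972 (95% interval 0.889 to 1.06). Both had overlapping groups. *Eya4*, a transcriptional coactivator and phosphatase near the far end of the window, was at 14, 13 and 27 in KO and 16, 19 and 16 in WT, too low and spread for a narrow interval.

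The group listed as metabolism and transport had 11 of 14 genes tested, with a median log2 fold change of -0.02 and 0 of 11 at an unadjusted p under 0.05. That count depends on the list, which leaves out *Ddo* and the Mfsd4b paralogs. With them, chosen after the values were seen, 16 were tested. Of these, 3 had an unadjusted limma p under 0.05 (18.8%, against 5.74% of all genes tested). All 3 were lower in KO, where 2.8% of all genes were called. The 95% interval lay within 1.5-fold for 13 of 16 (81.2%, against 74.4% of all genes tested). *Enpp1*, the enzyme that makes pyrophosphate and holds back calcification, was at 89, 101 and 120 in KO and 97, 81 and 88 in WT, a fold of 1.16 (95% interval 0.957 to 1.4). Of its KO values, 2 were above those of WT, and it had an unadjusted limma p under 0.05 without KO replicate 1. *Vnn1*, a pantetheinase, was at 2, 1 and 4 in KO and at 1 in each WT heart, around the floor. In the membrane traffic group, *Cd164*, a sialomucin of endosomes and the cell surface, was at 638, 614 and 647 in KO and 685, 626 and 637 in WT, a fold of 0.975 (95% interval 0.892 to 1.07). All 6 genes of that group had overlapping values. Groups did not overlap for 9.07% of all genes tested, so 6 genes are too few to set the group apart.

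The 14 tested neighbours that the lists put in no role group held 4 of the 6 genes at an unadjusted p under 0.05, *Ddo*, *Mfsd4b4*, *Mfsd4b5* and *Armc2*. The share was 28.6% of 14, against 5.74% of all genes tested, in a group left over from lists chosen with earlier results known, and the part of that choice in it was not tested. They were measured less precisely, with a median SE of 0.205. Their 95% interval lay within 1.5-fold for 6 of 14 (42.9%, against 74.4% of all genes tested).

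The 16 untested neighbours had a mean under 10 and no value above 13. In 4 of them, *Nkain2*, *Samd3*, *Tmem200a* and *Wisp3*, all values were at or under what 3 reads come to after rounding. Among the 16, 4 had groups that did not overlap, against 4.94% of all 8023 genes under the filter, which were not matched to them in level. *Cenpw*, a centromere protein, was at 4, 2 and 3 in KO and 10, 5 and 6 in WT, and *Mettl24* at 5, 5 and 8 in KO and 11, 9 and 10 in WT. *Tube1*, epsilon tubulin, was at 8, 7 and 7 in KO and 5, 3 and 3 in WT, and *Wisp3*, a relative of *Ctgf*, at 2 in each KO heart and at 1, 1 and 0 in WT. These differences are of a few reads, and the filter left them out of the test. Another 36 protein-coding genes that GENCODE M21 places in the window, 15 of them trace amine receptors (*Taar*), have no entry and were not analysed here.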

How the data were processed

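Strand-specific total RNA libraries were made from 6 mouse hearts, 3 *Trdn-as* KO and 3 WT. The authors trimmed the reads with Trimmomatic 0.39, aligned them with STAR 2.6.1d to GRCm38 (mm10), removed duplicates with Picard 2.21.1, counted uniquely placed reads in exons with featureCounts 1.6.5 and scaled the libraries with DESeq2 1.18.1 size factors (names and versions from the submitters' processing notes). The deposited values are a score, namely the read count of each gene divided by the size factor and rounded, so no count model was run. A count test had been the first choice should the table hold raw counts, and limma took its place. Value columns without a sample numbered 0.

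Neighbours were chosen by their coordinates in the table. The members, role groups and lists were chosen with earlier results of these data known. Values were tested as log2(value + 1) for the 13753 genes with a mean of at least 10, with limma 3.58.1 in R 4.3.3 (lmFit and eBayes, mean-variance trend, two-sided test, no covariate, all 6 samples) and Benjamini-Hochberg adjustment over all genes tested at 0.05. Fold changes are on the log2(value + 1) scale, which understates those of low genes, and intervals cover 95%. The fit was tested on simulated data. Size factors were read back from the rounding pattern to estimate reads, and the floor is 3 reads per library and covers counting error alone, as no molecular identifiers are described.

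Genes named were the 5 nearest tested on each side, all with an adjusted or unadjusted p under 0.05, the 5 with the highest mean, and 10 with roles in heart and vessel. Genes named for groups that do not overlap, for low values or as paralogs were chosen after their values were seen. Exon lengths and transcripts came from GENCODE M21, in which 59 of the 83 genes have the same coordinates as in the table. Promoters came from RefSeq. Alternatives were other pseudocounts, filters, scalings, tests, windows and thresholds, a replicate block, a read density correction and leaving out each library.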

Additional observations from a re-analysis of the deposited data

How the results depend on the processing

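The count of neighbours at an adjusted p under 0.05 was 0 in every setting tried. The count at an unadjusted limma p under 0.05, 6 as reported, was 3 with total scaling, 3 with limma-voom, 3 without the mean-variance trend and 2 of 20 tested in a window of 5 Mb on each side. It ran from 0 to 9 when 1 library was left out (0 without KO replicate 3, 3 without KO replicate 2, 9 without KO replicate 1), and the cause was not tested. The share of all genes called under each of these settings is not given here, so the shifts cannot be read as particular to the neighbours. The median log2 fold change, 0.008 as reported, was 0.030 with total scaling, 0.031 with limma-voom and -0.010 in the 5 Mb window, and ran from -0.003 to 0.020 with 1 library left out. Within 2 Mb, where it was -0.008, it was 0.014 with total scaling, 0.016 with limma-voom and -0.045 with the read density correction, and ran from -0.059 to -0.010 with 1 library left out. *Trdn* kept its log2 fold change of 0.69 without the trend, at a limma adjusted p of 0.145, and ran from 0.67 to 0.72 with 1 library left out. The fitted log2 fold change of *Trdn-as* depends on the pseudocount, since its KO values lie under the floor. It was -8.82 with a pseudocount of 1 and -10.5 with 0.1, and ran from -8.99 to -8.49 with 1 library left out. Whether the replicate numbers pair the hearts is not given. Deviations of same-numbered samples correlated at 0.048, -0.068 and -0.028, which cannot decide it. With a replicate block 7 neighbours had an unadjusted limma p under 0.05. Without the filter 7 of 83 did. The number of hearts, 3 a group, and about 3 M counted reads a library limit what can be seen: smaller changes than the intervals above, and genes with values under 10, were not resolved.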

Other observations

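The window also holds non-coding and pseudogene entries of the table, which the report does not use. Outside *Trdn* there were 67 of them, of which 12 had a mean of at least 10 and were tested. None had a limma adjusted p under 0.05. At an unadjusted limma p under 0.05 there was 1 entry, 8.33% of the 12 against 5.74% of all genes tested. This was AC115297.1, annotated as a transcript still to be tested, at a log2 fold change of -0.29 (limma adjusted p = 0.851). AC152922.1, of the same type, was lower in every KO heart than in any WT heart, at a log2 fold change of -0.60 (limma adjusted p = 0.851). The median over the 12 was -0.04.

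Inside *Trdn*, on its strand, the processed pseudogene AC109214.2 was at 39, 32 and 27 in KO and 10, 8 and 9 in WT (log2 fold change 1.74, limma adjusted p = 0.0117). The pseudogenes AC157017.1 (14, 9 and 10 in KO and 3, 1 and 1 in WT) and AC109214.4 (13, 8 and 11 in KO and 3, 3 and 4 in WT) were under the filter, with no overlap between groups. Groups did not overlap for 4.94% of all genes under the filter. In total RNA, reads from unspliced *Trdn* RNA and from these entries cannot be told apart. AC157017.3, also on that strand, overlapped between groups (log2 fold change 0.29, limma adjusted p = 0.907).

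By strand, the 31 tested neighbours on the plus strand, the strand of *Trdn*, had a median log2 fold change of 0.00, and the 36 on the minus strand, that of *Trdn-as*, had 0.02. By library, 15 of the 67 tested neighbours were highest in KO replicate 1 and 14 in KO replicate 3, against 6 in KO replicate 2 and 10 or 11 in each WT heart. The lowest value of 18 neighbours was in KO replicate 2 and that of 4 in KO replicate 3.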
